A study of Mus musculus with 8 samples.

Results

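Of the 9 genes described here, 5 encode CCN matricellular proteins, Ccn1 (older symbol Cyr61), Ccn2 (Ctgf), Ccn3 (Nov), Ccn4 (Wisp1) and Ccn5 (Wisp2), and the other 4 are Ankrd1, Amotl2, Yap1 and Tead1, which belong to the YAP and TEAD pathway. They were picked by gene symbol, or its older form, from the platform annotation of the array. Each of the 9 had 1 probe set, and they stand among 19505 genes measured in the series. All 9 had a mean log2 value above 8.39, the mean over arrays of the 95th percentile of the negative control probe sets.

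The cells were mesenchymal stromal cells of the inguinal fat pad of FVB male mice aged 12 months, grown in high-glucose medium with serum and infected with the lentiviral backbone pLKO.1. The pLKO.1 shIRF7 group (4 arrays) carried a short hairpin RNA against the interferon regulatory factor Irf7, the pLKO.1 Scramble group (2 arrays) a scrambled hairpin, and the pLKO.1 Empty vector group (2 arrays) no hairpin, so that all 8 arrays come from infected cells. The design text speaks of a single hairpin against Irf7, and the sources used here do not say whether infected cells were selected. No label says whether replicates came from separate cultures or mice, so the p-values measure how far these arrays spread, perhaps for technical reasons, and the small number of arrays limits their precision.

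CCN proteins are secreted into the extracellular matrix, where they bind integrins, proteoglycans and growth factors and act on adhesion, migration and matrix production. YAP, encoded by Yap1, is a transcriptional coactivator that the Hippo kinases keep out of the nucleus, and with DNA-binding partners of the TEAD family it switches on Ccn1, Ccn2, Ankrd1 and Amotl2, which are widely used as readouts of its activity. In fibroblasts and stromal cells a stiff support, spreading, serum and tension of the actin cytoskeleton raise YAP activity, and Ccn2 is also a target of TGF-beta. A level of messenger RNA does not show where YAP protein lies in the cell.

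The letters GGAATG form the core of the element that TEAD proteins bind, and promoters are shown with these letters marked because YAP acts on its targets through TEAD. RefSeq (GRCm38.p6) sequences were matched by symbol for Ccn1, Ankrd1, Amotl2 and Yap1, and Ccn2, Ccn3, Ccn4, Ccn5 and Tead1 were not searched. Each run below holds the 250 bases before the annotated start of the gene, 5′ to 3′ on the strand of the gene, with GGAATG or its reverse complement in capitals. The Ccn1 run lies at chr3:145649986-145650235 on the minus strand, that of Ankrd1 at chr19:36119845-36120094 on the minus strand, that of Amotl2 at chr9:102717554-102717803 on the plus strand, and that of Yap1 at chr9:8004597-8004846 on the minus strand.
Ccn1: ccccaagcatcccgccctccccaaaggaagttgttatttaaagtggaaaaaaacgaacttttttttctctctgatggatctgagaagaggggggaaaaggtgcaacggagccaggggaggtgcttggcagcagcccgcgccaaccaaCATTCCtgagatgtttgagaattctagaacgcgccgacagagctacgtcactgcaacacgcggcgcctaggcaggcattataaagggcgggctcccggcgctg
Ankrd1: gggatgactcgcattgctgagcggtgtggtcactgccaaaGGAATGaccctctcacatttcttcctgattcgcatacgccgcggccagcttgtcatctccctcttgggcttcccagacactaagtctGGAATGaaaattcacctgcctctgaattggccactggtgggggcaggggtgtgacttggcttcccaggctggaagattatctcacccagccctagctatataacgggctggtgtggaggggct
Amotl2: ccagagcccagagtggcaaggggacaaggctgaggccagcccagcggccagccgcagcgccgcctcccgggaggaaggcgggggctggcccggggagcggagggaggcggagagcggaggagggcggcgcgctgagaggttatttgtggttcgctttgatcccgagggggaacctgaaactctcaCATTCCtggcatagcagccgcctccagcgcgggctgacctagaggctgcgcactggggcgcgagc
Yap1: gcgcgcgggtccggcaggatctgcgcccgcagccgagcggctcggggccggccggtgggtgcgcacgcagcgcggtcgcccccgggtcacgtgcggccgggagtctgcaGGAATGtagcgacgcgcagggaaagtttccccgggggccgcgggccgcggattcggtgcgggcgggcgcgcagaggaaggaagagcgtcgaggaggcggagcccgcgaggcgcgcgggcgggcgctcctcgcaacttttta
All 4 runs held the motif on 1 of the strands, which were both searched. In Ccn1 it ended 98 bases before the start, in Amotl2 60 bases before and in Yap1 136 bases before, while Ankrd1 held it at 118 and at 205 bases before the start. Among 32851 promoter entries of the same length 12.6% held GGAATG on either strand, but the motif was chosen after these runs had been read, so the share is given as a description and tests nothing. A pair of GAAA separated by 2 bases, as in elements bound by interferon regulatory factors, was in 0 of the 4 runs and in 2.98% of all entries, searched on both strands. A match describes the letters only.

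The hairpin was checked on its target first. Irf7 measured 4.42, 5.66, 6.47 and 6.79 on the log2 scale in shIRF7 replicates 1 to 4, against 9.56 and 9.76 in scramble and 9.55 and 9.61 in empty vector. All 4 shIRF7 values lay under the 95th percentile of the negative controls of their arrays (7.93 to 8.72), so Irf7 was not above background there and its level has only a bound. Set against that percentile, averaged over the 4 arrays, Irf7 was at least 2.34-fold lower in shIRF7. The measured log2 difference from both controls was -3.79 (SE 0.48, limma adjusted p = 0.0692), with -5.14 among arrays numbered 1 and -4.02 among those numbered 2. Negative control medians of the 8 arrays lay between 4.18 and 4.56. They were 4.18 to 4.26 in replicate 1 and 4.55 to 4.56 in replicate 2 of the 3 groups, so differences within replicate number 1 and within replicate number 2 are also given. Each sets 1 shIRF7 array against the mean of the scramble and empty vector arrays of its number. Deviations from the group mean did not run together between shIRF7 and same-numbered controls (correlation across genes -0.31 to -0.16). The differences were therefore not taken as those of matched pairs. That check cannot exclude a shared batch, because the shIRF7 mean includes replicates 3 and 4, whose numbers no control carries. Of 10 measured markers of mesenchymal stromal cells 7 exceeded the 95th percentile of negative controls on all arrays (among them Pdgfrb, Eng, Cd44, Itgb1 and Col1a1), but Thy1 did so on 2 arrays and Nt5e (CD73), at 2.68 to 3.07, on 0.

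In shIRF7 against both controls 0 of the 9 genes passed the limma threshold of an adjusted p of 0.05, which 0.0308% of all genes passed. Of the 9 genes 2 had an unadjusted limma p under 0.05 (Ccn5 and Amotl2, both lower), as had 8.12% of all genes in either direction and 4.1% in the lower one. All 9 differences were below 0, as were 49.7% of those of all genes and 47% of those of the 6627 genes whose mean exceeded 8.39. The median of the 9 was -1.17 against 0.0017 over all genes, and 6 of 9 (66.7%) lay under -1, against 1.67% of all genes and 2.81% of the brighter 6627. The shIRF7 arrays themselves spread widely. In 0 of the 9 genes did all 4 shIRF7 arrays lie below all 4 controls, which was so for 2.8% of all genes.

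Ccn2, the connective tissue growth factor that marks fibrotic stroma, varied most. It measured 16.06, 9.69, 9.46 and 12.94 on the log2 scale in shIRF7 replicates 1 to 4, against 13.89 and 13.61 in scramble and 12.80 and 13.42 in empty vector. Replicate 1 of shIRF7 was thus above every control, replicates 2 and 3 far below every control, and replicate 4 among them. Between shIRF7 replicates 1 and 2 the linear ratio was 82.7. The means were 12.04 ± 3.12 in shIRF7 and 13.43 ± 0.46 in the controls (SD, n = 4 each). The log2 difference was -1.39 (SE 1.39, 95% interval -4.62 to 1.83, limma adjusted p = 0.873). That difference was 2.71 within replicate 1 and -3.83 within replicate 2, opposite in direction.

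Ccn1, the cysteine-rich angiogenic inducer that serum induces as an immediate early gene, showed the same low pair. Its values were 17.49, 12.93, 13.10 and 15.97 in shIRF7 replicates 1 to 4, against 17.25 and 16.68 in scramble and 17.03 and 16.23 in empty vector. 3 shIRF7 arrays lay below every control and replicate 1 above every control. The mean was 14.87 ± 2.23 in shIRF7 and 16.80 ± 0.45 in the controls (SD, n = 4 each). The log2 difference was -1.92 (SE 1.01, 95% interval -4.27 to 0.42, limma adjusted p = 0.704). Within replicate 1 it differed by 0.35 and within replicate 2 by -3.52.

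Ccn4, a target of Wnt signalling in mouse mammary cells, followed the order of Ccn2 within shIRF7 at a smaller scale. It measured 11.84, 8.91, 8.81 and 10.05 in shIRF7 replicates 1 to 4, against 10.70 and 11.02 in scramble and 9.75 and 10.50 in empty vector. Again replicate 1 exceeded every control and replicates 2 and 3 were below all of them. The log2 difference was -0.59 (SE 0.65, 95% interval -2.10 to 0.92, limma adjusted p = 0.89), and it was 1.61 in arrays numbered 1 and -1.86 in those numbered 2.

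Ccn5, which lacks the carboxy-terminal cystine knot domain of the other CCN proteins and opposes CCN2 in fibrosis models, was the steadiest of the family. It measured 14.35, 13.70, 13.47 and 12.91 in shIRF7 replicates 1 to 4, against 15.44 and 15.10 in scramble and 14.47 and 14.23 in empty vector. Every shIRF7 array was below both scramble arrays, and replicate 1 alone lay above an empty vector array. With means of 13.61 ± 0.60 in shIRF7 and 14.81 ± 0.56 in the controls (SD, n = 4 each), the log2 difference was -1.20 (SE 0.30, 95% interval -1.89 to -0.51). By limma this had an unadjusted p of 0.00411 and an adjusted p of 0.317, and it ranked 252nd of all genes by p. Within replicates 1 and 2 the differences were -0.60 and -0.96, alike in direction.

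Ccn3, a CCN protein that restrains growth in many cell types, did not share the pattern. Its values were 6.85, 8.51, 8.73 and 9.18 in shIRF7 replicates 1 to 4, against 8.72 and 7.43 in scramble and 12.36 and 8.90 in empty vector. Here shIRF7 replicate 1 was the lowest array and empty vector replicate 1 stood far above all others, and 5 of the 8 arrays exceeded the 95th percentile of their own negative controls. The log2 difference was -1.03 (SE 0.81, 95% interval -2.92 to 0.85, limma adjusted p = 0.831), and it was -0.17 without empty vector replicate 1 and -1.90 without empty vector replicate 2 (adjusted p = 0.347). Within replicate 1 it was -3.69 and within replicate 2 it was 0.35. Ccn6, the remaining family member, lay between 2.62 and 3.45 on all arrays, below the 95th percentile of negative controls on each.

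Among the YAP targets outside the family, Ankrd1 encodes an ankyrin repeat protein of the nucleus and the sarcomere. It measured 14.77, 9.40, 9.22 and 11.61 in shIRF7 replicates 1 to 4, against 13.31 and 13.28 in scramble and 11.35 and 12.86 in empty vector. The arrays ran in the order seen for Ccn2. Its mean was 11.25 ± 2.59 in shIRF7 and 12.70 ± 0.93 in the controls (SD, n = 4 each). The log2 difference was -1.45 (SE 1.18, 95% interval -4.19 to 1.29, limma adjusted p = 0.836), and it was 2.44 in arrays numbered 1 and -3.68 in those numbered 2.

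Amotl2 encodes an angiomotin that binds YAP and holds it in the cytoplasm, a negative feedback on the pathway. It measured 13.62, 11.38, 11.47 and 11.83 in shIRF7 replicates 1 to 4, against 13.64 and 13.27 in scramble and 12.86 and 13.21 in empty vector. 3 shIRF7 arrays lay below every control, while replicate 1 was level with the highest. The mean was 12.08 ± 1.05 in shIRF7 and 13.25 ± 0.32 in the controls (SD, n = 4 each). The log2 difference was -1.17 (SE 0.49, 95% interval -2.30 to -0.044) with an unadjusted limma p of 0.0435 and an adjusted p of 0.597. It was 0.37 within replicate 1 and -1.86 within replicate 2.

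The coactivator and its partner varied less. Yap1 measured 10.45, 9.89, 9.82 and 10.51 in shIRF7 replicates 1 to 4, against 10.41 and 10.44 in scramble and 11.10 and 10.31 in empty vector. Replicates 2 and 3 of shIRF7 were the lowest arrays by a small margin, and the log2 difference was -0.40 (SE 0.24, 95% interval -0.96 to 0.16, limma adjusted p = 0.753). Tead1, the DNA-binding partner, measured 13.39, 12.01, 12.28 and 12.23 in shIRF7 replicates 1 to 4, against 13.26 and 13.02 in scramble and 12.80 and 12.72 in empty vector. Here 3 shIRF7 arrays lay below every control and replicate 1 above every control, with a log2 difference of -0.47 (SE 0.30, 95% interval -1.17 to 0.23, limma adjusted p = 0.77). Within replicates 1 and 2 the differences of Yap1 were -0.31 and -0.49, and those of Tead1 0.37 and -0.86.

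**Figure D1:**
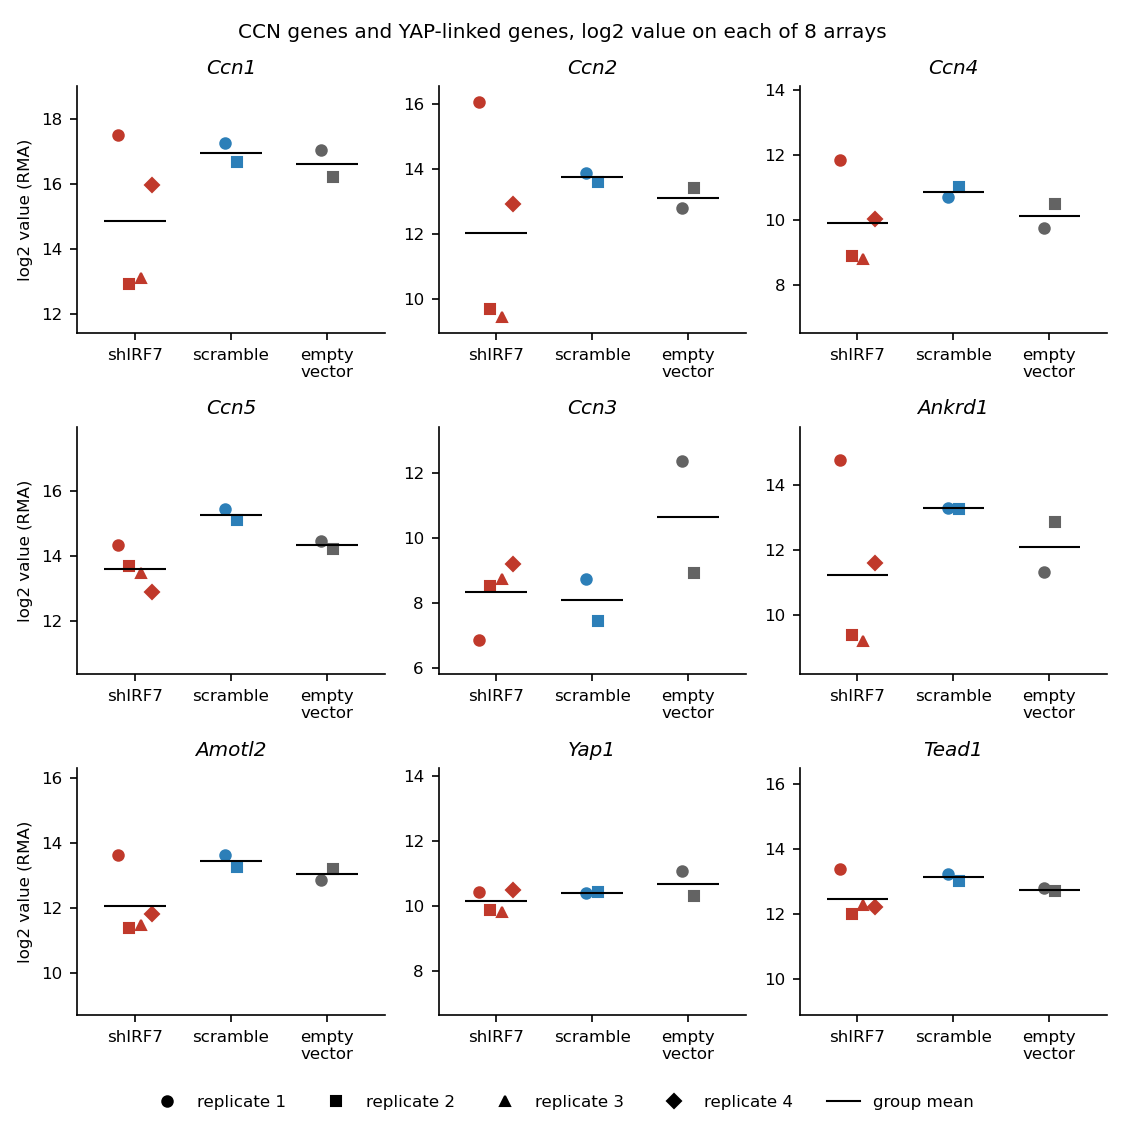
Log2 value (y axis; each panel spans the same height on the log2 scale but starts at another value) of each of the 9 genes in shIRF7, scramble and empty vector (x axis), 1 point per array with the marker giving the replicate number and a line at the group mean. In Ccn1, Ccn2, Ccn4, Ankrd1 and Tead1 shIRF7 replicate 1 lies above every control and replicates 2 and 3 below every control. Amotl2, Yap1 and Ccn5 share only the low replicates 2 and 3, and Ccn3 shares neither.

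The genes with the smallest p differed between the controls. In shIRF7 against scramble 0 of the 9 genes passed the threshold (0.00513% of all genes did), 8 of 9 were below 0 with a median of -1.38, and 2 (Ccn5 and Amotl2) had an unadjusted limma p under 0.05, both lower, as had 6.14% of all genes in either direction and 3.27% in the lower one. Ccn5 differed from scramble by -1.66 (SE 0.36, limma adjusted p = 0.406) and Amotl2 by -1.38 (SE 0.59, adjusted p = 0.812). In shIRF7 against empty vector 0 of the 9 passed (0% of all genes did), all 9 were below 0 with a median of -0.86, and 1 (Ccn3) had an unadjusted limma p under 0.05, as had 5.84% of all genes in either direction and 3.3% in the lower one. Ccn3 differed from empty vector by -2.31 (SE 0.99, limma adjusted p = 0.853), but from scramble by 0.24 (SE 0.99, adjusted p = 0.991). Both comparisons share the 4 shIRF7 arrays. Scramble against empty vector gave 0 of 9 past the threshold (0% of all genes) and 0 with an unadjusted limma p under 0.05 (1.93% of all genes), with 7 of the 9 genes higher in scramble. The largest difference was that of Ccn3, -2.56 in scramble against empty vector (SE 1.15). Ankrd1 was 1.19 higher in scramble (SE 1.67) and Ccn5 0.93 higher (SE 0.42), and all 3 had a limma adjusted p of 1.00.

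**Figure D2:**
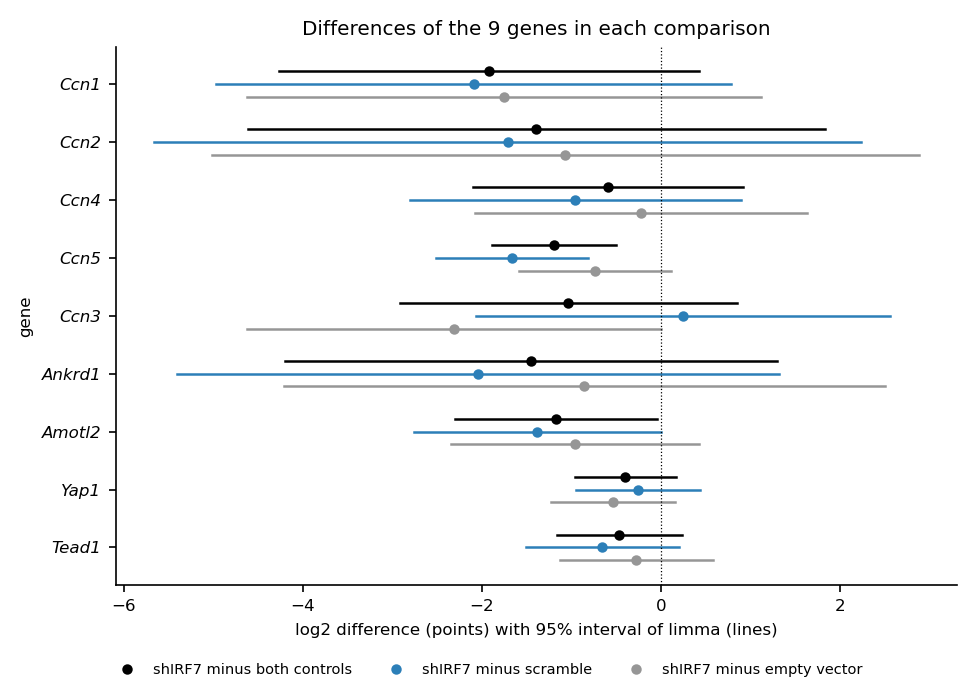
Log2 difference (x axis) of the 9 genes (y axis) for shIRF7 minus both controls, minus scramble and minus empty vector, as points with the 95% interval of limma as lines. Most points lie left of 0, the intervals of Ccn2 and Ankrd1 are the widest, and before any adjustment those of Ccn5 and Amotl2 exclude 0 against both controls and against scramble, as does that of Ccn3 against empty vector.

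The spread within shIRF7 was wide in most of these genes. The SD over the 4 shIRF7 arrays was 3.12 for Ccn2, 2.59 for Ankrd1, 2.23 for Ccn1, 1.41 for Ccn4 and 1.05 for Amotl2, where the median over all genes was 0.25 and the 95th percentile 0.74. By the range of the shIRF7 arrays Ccn2 ranked 5th, Ankrd1 16th and Ccn1 29th among 19505 genes. A range over 2 on the log2 scale was seen in 6 of the 9 genes, in 2.66% of all genes and in 4% of the brighter 6627. 5 genes (Ccn1, Ccn2, Ccn4, Ankrd1 and Amotl2) held shIRF7 replicate 1 highest, replicate 4 next and replicates 2 and 3 lowest, an order shared by 15.5% of all genes and 23.5% of the brighter ones. In 8 of the 9 genes, all but Ccn3, replicates 2 and 3 lay below every control, as they did in 11.1% of all genes and 15.1% of the brighter ones. Replicate 1 lay above every control in 5 genes (Ccn1, Ccn2, Ccn4, Ankrd1 and Tead1), as it did in 18.2% of all genes and 19.2% of the brighter ones. These array patterns were read from the values of the 9 genes themselves, so the shares are a description and test nothing.

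Leaving out single arrays moved the differences by unequal amounts. That of Ccn5 stayed between -1.45 and -0.97 over the 8 fits that each left out 1 array. Without shIRF7 replicate 1 Amotl2 passed the threshold, with a log2 difference of -1.69 (limma adjusted p = 0.0494, while over its other alternatives the adjusted p ran between 0.478 and 1.00). In that same fit Ccn1 differed by -2.80 (adjusted p = 0.215), Ccn2 by -2.73 (adjusted p = 0.271), Ankrd1 by -2.63 (adjusted p = 0.186) and Ccn5 by -1.45 (adjusted p = 0.0821), and 28 genes passed in all. Without shIRF7 replicate 3 the difference of Ccn2 was -0.53 and that of Ankrd1 -0.78. Replicates 2 and 3 of shIRF7 were the closest pair of the 8 arrays (SD of their difference over genes 0.32), about as close as scramble replicate 2 and empty vector replicate 2 (0.33), which carry different vectors.

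The genes whose profile over the 8 arrays was closest to that of Ccn2 were found among 17037 genes by the root mean square of the log2 difference between profiles, each centred on its own mean. A flat profile would lie 2.05 from Ccn2. The nearest was another of the 9 genes, Ankrd1, at 0.48. Next came Cnn1, which encodes the actin-binding protein calponin, at 0.57, Ptgs2, the inducible cyclooxygenase, at 0.72, and Ccn1 at 0.75. Cnn1 measured 15.71, 10.56, 9.73 and 13.97 in shIRF7 replicates 1 to 4, against 14.59 and 13.84 in scramble and 12.27 and 12.99 in empty vector. As in Ccn2, shIRF7 replicate 1 was the highest and replicates 2 and 3 the lowest arrays.

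For Ccn1, from which a flat profile would lie 1.69, the nearest were Pcolce2, an enhancer of procollagen processing, at 0.44, Thbs1, the matricellular protein thrombospondin 1, at 0.50, Dusp4, a phosphatase of MAP kinases, at 0.51 and Serpinb9b, a protease inhibitor with close paralogues, at 0.54. Thbs1 measured 17.56, 13.22, 13.40 and 15.19 in shIRF7 replicates 1 to 4, against 17.37 and 15.81 in scramble and 17.47 and 15.56 in empty vector. Ccn2 ranked 25th by this measure, Ankrd1 37th, Amotl2 72nd and Ccn4 79th. Ccn3 was farther from Ccn1 (2.23) than a flat profile.

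**Figure D3:**
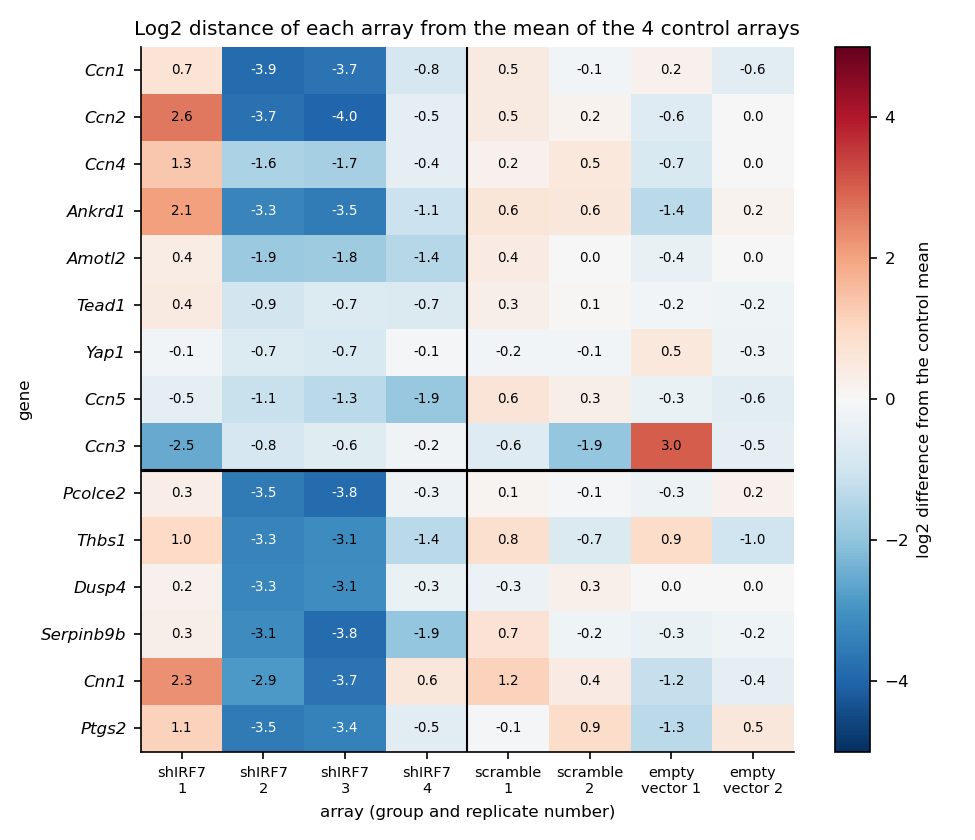
Log2 distance of each array (columns) from the mean of the 4 control arrays, for the 9 genes (above the line) and the genes with profiles closest to Ccn1 and Ccn2 (below it), with blue for lower and red for higher. The columns of shIRF7 replicates 2 and 3 are blue in every row, least so for Ccn3 (-0.84 and -0.62), Yap1 (-0.68 and -0.75) and Tead1 (-0.94 and -0.67). The column of shIRF7 replicate 1 is red except for Yap1, Ccn5 and Ccn3.

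The rest of the pathway was read from 7 gene lists, of which 110 of 115 distinct genes were measured. In shIRF7 against both controls 0 of these genes passed the limma threshold in either direction. Of Hippo kinases and their upstream regulators, a list not split by direction of action on YAP, 18 of 23 were below 0. The median was -0.28, with an unadjusted limma p under 0.05 for 4 (all lower). Over all genes 49.7% were below 0 and 4.1% had such a p in the lower direction. Lats1, the kinase that phosphorylates YAP, measured 11.62, 11.17, 10.90 and 10.74 in shIRF7 replicates 1 to 4, against 12.32 and 11.83 in scramble and 11.94 and 11.76 in empty vector. No shIRF7 value reached a control, and the log2 difference was -0.86 (SE 0.22, limma adjusted p = 0.338). Limd1, a LIM protein that binds LATS kinases, differed by -0.88 (SE 0.17, adjusted p = 0.188), with all shIRF7 arrays below all controls, and its relative Ajuba by -1.08 (SE 0.55, adjusted p = 0.69). These 2 of 23 genes without overlap, Lats1 and Limd1, compare with 2.8% of all genes. Within numbers 1 and 2 the log2 differences were -0.51 and -0.63 for Lats1, -0.75 and -0.69 for Limd1, and 0.22 and -2.13 for Ajuba, so that Ajuba turned sign.

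Partners of YAP and TEAD were nearly level, with a median of -0.09 over 9 genes. The TEAD cofactor Vgll3 differed by -0.60 (SE 0.30, adjusted p = 0.684 by limma), the transcription factor Runx1 by -0.44 (SE 0.26, adjusted p = 0.748) and Vgll4, a TEAD cofactor that competes with YAP and was below the 95th percentile of negative controls on all arrays, by 0.32 (SE 0.20, adjusted p = 0.759). Wwtr1, which encodes the YAP relative TAZ and was named after its values were seen, measured 11.87, 11.35, 11.34 and 11.71 in shIRF7 replicates 1 to 4, against 11.84 and 11.54 in scramble and 12.09 and 11.59 in empty vector. In it shIRF7 replicates 2 and 3 were again the lowest arrays, and the log2 difference was -0.20 (limma adjusted p = 0.871). Of 20 other YAP and TAZ target genes 16 were below 0, with a median of -0.29 and an unadjusted limma p under 0.05 for 3 (all lower), where 49.7% and 4.1% of all genes did so. Nuak2, a kinase induced by YAP that exceeded the 95th percentile of negative controls on 1 array, differed by -1.53 (SE 0.58, adjusted p = 0.559) and Gadd45a, a stress-induced regulator of growth arrest, by 1.11 (SE 0.92, adjusted p = 0.841). The log2 differences within numbers 1 and 2 were 0.016 and -0.75 for Vgll3, 0.16 and -0.58 for Runx1, 0.24 and 0.63 for Vgll4, -0.21 and -1.82 for Nuak2, and -1.92 and 2.95 for Gadd45a, with opposite signs for Vgll3, Runx1 and Gadd45a.

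CCN receptors had a median of -0.10 over 13 genes, Ccn6 among them, and 7 of them were below 0, as were 49.7% of all genes. Sdc4, a heparan sulfate proteoglycan of focal adhesions that binds CCN1 and CCN2, measured 12.01, 10.69, 10.56 and 10.64 in shIRF7 replicates 1 to 4, against 12.52 and 12.82 in scramble and 12.02 and 12.32 in empty vector. All shIRF7 arrays were below all controls, replicate 1 by a small margin, and the log2 difference was -1.44 (SE 0.34, limma adjusted p = 0.285). The integrin subunit Itga5 differed by -1.24 (SE 0.43, adjusted p = 0.527), and Itgb3 by 1.23 (SE 0.56, adjusted p = 0.639). Within numbers 1 and 2 the log2 differences were -0.26 and -1.88 for Sdc4, 0.27 and -2.15 for Itga5, and -0.22 and 2.29 for Itgb3, and both integrin genes turned sign.

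TGF-beta genes had a median of -0.23 over 15 genes. Thbs1, which activates latent TGF-beta, differed by -1.71 (SE 1.00, limma adjusted p = 0.747), Tgfb3 by -0.58 (SE 0.91, adjusted p = 0.931) and Tgfbi, a secreted matrix protein, by 0.70 (SE 0.92, adjusted p = 0.915). Their log2 differences within numbers 1 and 2 had opposite signs: 0.14 and -2.46 for Thbs1, 0.53 and -0.93 for Tgfb3, and -1.46 and 1.62 for Tgfbi. Serum response factor with its cofactors and cytoskeletal targets had 15 of 16 genes below 0 and a median of -0.44. Over all genes 49.7% were below 0. An unadjusted limma p under 0.05 was found for 1 of the 16 (lower), where 4.1% of all genes had one in that direction. The list median was 0.85 within number 1 and -1.28 within number 2. The mean log2 value of this list was 14.55, 12.04, 12.05 and 13.34 in shIRF7 replicates 1 to 4, against 14.01 and 13.65 in scramble and 13.22 and 13.35 in empty vector. Replicate 1 of shIRF7 was thus the highest array and replicates 2 and 3 the lowest, as for Ccn2. Flna, the actin cross-linker filamin A, differed by -2.06 (SE 0.53, adjusted p = 0.332) with all shIRF7 arrays below all controls, Srf by -1.14 (SE 0.69, adjusted p = 0.753) and the tropomyosin gene Tpm2 by -0.98 (SE 0.54, adjusted p = 0.719). Within numbers 1 and 2 these were -0.56 and -2.52 for Flna, 0.80 and -2.42 for Srf, and 0.94 and -2.07 for Tpm2, with a change of sign in Srf and Tpm2.

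Immediate early genes, which serum and stretch induce within minutes and to which Ccn1 belongs, had 16 of 18 genes below 0. Over all genes 49.7% were below 0, and the median of the list was -0.64. Their mean log2 value was 10.22, 8.71, 8.75 and 9.77 in shIRF7 replicates 1 to 4, against 10.78 and 9.56 in scramble and 10.68 and 9.43 in empty vector. In the controls this list followed the replicate number more than the vector. Egr1, a zinc finger transcription factor, measured 14.28, 8.29, 8.88 and 13.90 in shIRF7 replicates 1 to 4, against 15.11 and 11.02 in scramble and 15.96 and 11.24 in empty vector, and its log2 difference was -2.0 (SE 1.81, limma adjusted p = 0.858). Its relative Egr2 differed by -1.64 (SE 1.13, adjusted p = 0.794) and the nuclear receptor Nr4a1 by -1.51 (SE 1.76, adjusted p = 0.9). Within numbers 1 and 2 the log2 differences were -1.26 and -2.84 for Egr1, -0.67 and -2.24 for Egr2, and -1.77 and 0.55 for Nr4a1. That of Nr4a1 changed sign, but Nr4a1 exceeded the 95th percentile of negative controls only on the 3 arrays numbered 1. Its difference within number 2 is thus one between background values.

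**Figure D4:**
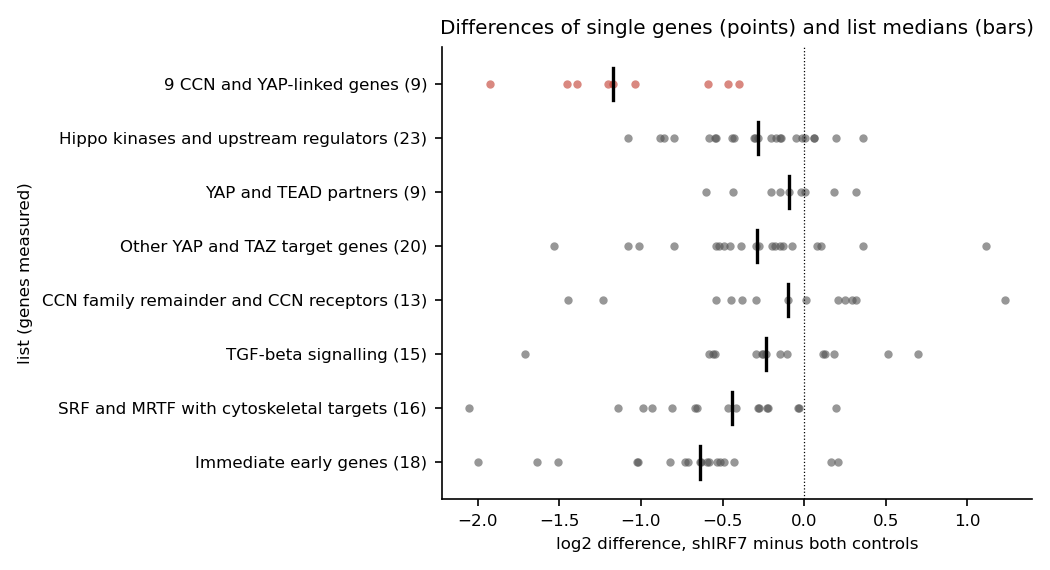
Log2 difference of shIRF7 minus both controls (x axis) for single genes (points) of the 9 CCN and YAP-linked genes and of the 7 gene lists (y axis, with the number measured), with the median as a bar. The medians lie between -1.17 for the 9 genes and -0.09 for the YAP and TEAD partners.

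Markers of smooth muscle cells and pericytes shared the array order of Ccn2 in part. Acta2 and Cnn1 exceeded the 95th percentile of negative controls on all arrays, whereas the other 5 of 7 markers (Myh11, Des, Rgs5, Cspg4 and Notch3) did so on none. The mean log2 value of the list ranged from 6.18 to 7.95 in shIRF7 and from 6.90 to 7.49 in the controls. Of the skeletal muscle list 6 of 7 genes stayed under that level on all arrays, and Acta1 exceeded it on 3. All 7 measured markers each of endothelial cells, of leukocytes and macrophages, and of epithelial and mesothelial cells were under it on every array, as were 6 of 7 adipocyte markers, with Fabp4 above it on 4 arrays. The part of these markers in the results was not tested, and in bulk RNA fewer cells of a type cannot be told apart from less RNA per cell.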

How the data were processed

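Total RNA of 8 samples was labelled with biotin and measured on Affymetrix mouse arrays. The deposited log2 values, 1 per probe set and array, were made by the authors with RMA (background correction, normalization between arrays, summary of probes) in Expression Console (Affymetrix, version 1.4.1.46), as listed per the submitters' processing notes, and the log2 scale was read from the values (1.66 to 18.95). The sources used here do not give the genome build. Of 28846 probe sets 19572 had 1 gene symbol, 0 several and 9274 none. Symbols were updated through gene identifiers, all of which matched RefSeq (GRCm38.p6). The brightest probe set stood for each of the 55 genes that had several.

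R 4.3.3 with limma 3.58.1 (lmFit, eBayes) was used to fit all 19505 genes with a mean per group over the 8 arrays (5 residual and 2.68 prior degrees of freedom). Controls were weighted equally, and p-values were adjusted by Benjamini-Hochberg over all genes (threshold 0.05). The fit was tested on simulated data with independent noise on each array, which cannot show how it behaves where arrays deviate together. The 9 genes and the lists were chosen with earlier results of these data known, and the motifs after the promoters had been read. Genes named beside the 9 are, per list, the 3 with the largest absolute difference (none passed), and the 4 closest profiles to Ccn1 and to Ccn2, leaving out predicted genes, clones, small RNAs and receptor segments. Alternatives were pooling of both controls, removal of dim genes, cyclic loess, robust eBayes with a trend, averaged probe sets, the replicate number as a block, the closest shIRF7 arrays averaged, and each array left out.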

Additional observations from a re-analysis of the deposited data

Results flagged for a closer look

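Of 35 genes named in the text, 3 had a single array far from the other shIRF7 arrays, by a gap that chance gives in about 1 of 20 groups. In each it was shIRF7 replicate 1, the highest of the 4. A few such gaps come about among 35 genes at that rate, and the 3 share 1 array, so they are not separate observations. Vgll3, a TEAD cofactor, measured 15.07 there, against 13.84 to 14.02 in the other shIRF7 arrays. Sdc4 measured 12.01 there, against 10.56 to 10.69 in the others. Flna measured 15.81 there, against 13.40 to 13.64 in the others.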

How the results depend on the processing

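Every log2 difference of the 9 genes from both controls stayed below 0 under all 7 alternatives and all 8 fits that left out 1 array. The number of the 9 genes past the threshold stayed at 0 in all comparisons, except for 1 (Amotl2) without shIRF7 replicate 1 in shIRF7 against both controls (range 0 to 1 over arrays left out). Over all genes, shIRF7 against both controls called 6 genes by limma, 3 with dim genes removed, 3 with trend and robust fitting, 28 with both controls as 1 group, 0 with the closest shIRF7 arrays averaged (1051 at an unadjusted p under 0.05) and 0 to 28 when an array was left out. In shIRF7 against scramble 1 gene was called, with 0 when dim genes were removed, with trend and robust fitting, or with the closest arrays averaged (485, 1126 and 875 at an unadjusted p under 0.05), and 0 to 8 when an array was left out. In shIRF7 against empty vector the count was 0 (1139 at an unadjusted p under 0.05), and 0 to 3 when an array was left out. Against scramble, Ccn3 ran from -0.40 to 0.89 when an array was left out. Against empty vector, Ccn4 turned to 0.12 with the closest arrays averaged and ran from -0.87 to 0.15 when an array was left out. In scramble against empty vector Ccn1 ran from -0.064 to 0.74 and Yap1 from -0.67 to 0.11. The cause of these changes was not tested.

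Same-numbered arrays deviated together between scramble and empty vector (correlation of deviations across genes 0.76) but not with shIRF7 (-0.31 to -0.16). The numbers were therefore not taken to pair shIRF7 arrays with controls. Same-numbered arrays may still share a batch, since the shIRF7 deviations were taken from a mean that includes replicates 3 and 4. With the replicate number as a block 2 residual degrees of freedom remained. By limma 0 genes were called in shIRF7 against both controls (691 at an unadjusted p under 0.05) and 0 against scramble (563). No control carries the numbers 3 and 4, so shIRF7 replicates 3 and 4 did not enter the differences of the block fit. Its values therefore differ from the main fit by the shIRF7 arrays used as well as by the block. In that block fit Ccn2 differed from both controls by -0.56, Ccn1 by -1.58, Ccn5 by -0.78 and Amotl2 by -0.75 (unadjusted p = 0.258, against 0.0435 without the block), Ccn3 from scramble by -0.39, and Ccn4 from empty vector by 0.24. Signal over background limits Ccn3, which was dim on 3 of the 8 arrays.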

Other observations

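Dcn, which encodes the small leucine-rich proteoglycan decorin and was listed as a stromal marker, was lowest in the shIRF7 array where Ccn2 was highest. It measured 7.62, 14.01, 14.06 and 13.68 on the log2 scale in shIRF7 replicates 1 to 4, against 10.10 and 8.05 in scramble and 15.84 and 10.47 in empty vector. Both Dcn and Ccn3 were lowest in shIRF7 replicate 1 and highest in empty vector replicate 1. Acta1, the skeletal muscle form of actin, measured 12.17, 5.30, 5.91 and 9.50 in shIRF7 replicates 1 to 4, against 8.96 and 6.79 in scramble and 6.02 and 6.29 in empty vector, so that it was highest where Ccn2 was highest. These genes were chosen after their values were seen.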
